A study of Mus musculus with 32 samples.

Results

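Interactions whose RNA tag lay in an LTR retrovirus repeat numbered 352402 among the 25231081 RNA–chromatin interactions listed in the 15 RADICL-seq libraries, or 1.40%. They were chosen by the repeat overlap deposited with each interaction, which had to give the class LTR for the RNA tag, and interactions with the same RNA position, strand, transcript and DNA position were counted once. Among tags in any annotated repeat, 12.4% were in the LTR class. The ERVL-MaLR family held 211530 interactions (60.0% of the LTR set), ERVK held 79288 (22.5%), ERVL held 45340 (12.9%) and ERV1 held 14091 (4.00%). A further 2569 interactions were in none of these families, 423 lay in copies of more than 1 family and were counted in each, and 665 in the uncertain class "LTR?" were left out. Every listed LTR overlap was on the strand of the tag, so only RNA in the sense of the repeat is described.

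In RADICL-seq, a bridge adapter joins RNA to nearby DNA inside fixed nuclei, and sequencing reads a stretch of each, the RNA tag and the DNA tag. The cells were R08, a mouse embryonic stem cell line (mESC), and Oli-neu, a neural line derived from mouse oligodendrocyte progenitor cells (mOPC), so each cell type was represented by 1 line. The mESC 1FA group (3 libraries) was crosslinked with 1% formaldehyde and the mESC 2FA group (3 libraries) with 2%. The mESC ActD4 group (2 libraries) received actinomycin D, an inhibitor of transcription elongation, at 5 µg/ml for 4 h and was then crosslinked with 1% formaldehyde. The mOPC 1FA group (3 libraries) was crosslinked with 1% formaldehyde. In the NPM groups (non-protein mediated, 2 libraries in mESC and 2 in mOPC), crosslinks made with 1% formaldehyde were reversed by proteinase K before the RNA was ligated. RNase H was applied to the nuclei of every group.

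The libraries listed 251802 to 2832717 interactions each, of which 2716 to 40318 had an LTR tag. Only pairs of a transcript and a 25-kb DNA bin that passed the study's significance test were listed, and replicates of a group shared 1 list of pairs: the p-value of a pair was the same in all replicates for 100% of the shared pairs. The spread between libraries of a group therefore understates the spread of the experiment, p-values below measure only the spread between these libraries, and an entry of 0 is not evidence of absence. Marker transcripts followed the labels, with 6 of 7 stem cell markers listed in every mESC library (Dppa5a was at 0) and 6 of 6 progenitor markers in every mOPC library. The stem cell markers summed to between 1325 and 2284 interactions per 1000000 listed interactions (IPM) in mESC libraries and to between 0.452 and 25.9 in mOPC libraries.

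LTR retrotransposons are the remains of retroviruses that entered the germ line. An intact copy has an internal part with viral genes between a pair of long terminal repeats, and recombination between the pair leaves a solitary long terminal repeat, the form in which most copies survive. In mouse, ERV1 includes relatives of murine leukaemia virus and the VL30 elements, ERVK includes the still mobile IAP and ETn elements, ERVL includes MERVL, whose transcripts are known from early cleavage embryos and rare cells of stem cell cultures, and ERVL-MaLR holds the non-autonomous MT, ORR1 and MLT repeats. Many copies lie in introns, where they are read through as part of the host gene's pre-mRNA.

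Among the chromosomes searched, the RNA position with the most interactions was found for the 10 leading LTR names. The search left out 1 chromosome, so a position there may have had more. The 27 bases around the position found are printed for 7 of these names. They show where in the genome, and in which host transcript, tags of these repeats arose. Bases are from GRCm38 (mm10), 5′ to 3′ on the strand of the RNA, and the capital marks the centre of the tag, which the files place to within 1 base.
MTD: acaggtaactgagCaagccagcaagca
MTC: gagagccagctgaGcagatgaggagga
MTE2a: gagagtagaaagaCaagcaaacaagga
ORR1E: taggagatgatggGgcctgtctgaagc
ORR1D1: tggtctcagttggTggatgccattggg
MTEa: ggataaaacccacActgaagataggca
ORR1F: aagcttcaccaagGctcagcgctgagc
These 7 positions were in introns, whereas that of ORR1D2, not printed, was in an exon of NAST_2170, an unannotated transcript, and that of MT2B, also not printed, was at a copy of 14 bases in an intron of Ybx1. The MTD window (chr10:70480681-70480707, plus strand) was in Fam13c, the MTC window (chr11:88674453-88674479, minus strand) in Msi2, which encodes an RNA-binding protein, and the MTE2a window (chr8:116601610-116601636, minus strand) in Cdyl2. The ORR1E window (chr10:25386601-25386627, plus strand) was in Epb41l2 and the ORR1F window (chr12:79339005-79339031, plus strand) in Rad51b. The ORR1D1 window (chr15:62131969-62131995, plus strand) and the MTEa window (chr15:62136529-62136555, plus strand) were both in Pvt1, the long noncoding RNA next to Myc. Each of these positions carried little of its name's total, from 0.288% for MTD to 1.37% for ORR1F. The MTD position in Fam13c had been captured 22, 29 and 38 times in the mOPC 1FA libraries and 5 times in each mESC 1FA library. The MTC position in Msi2 went the other way, with 11, 18 and 15 interactions in mESC 1FA and 1, 3 and 1 in mOPC 1FA.

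ERVL-MaLR repeats dominated the set. Of 610 LTR repeat names, 224 were listed in all 15 libraries, and the 10 names with the highest share averaged over the 6 groups held 34.7% of LTR interactions. These were MTD (11%), MTC (4.22%), MTE2a (3.06%), ORR1E (2.78%), ORR1D1 (2.64%), MTEa (2.52%), ORR1F (2.40%), MTE2b (2.28%), MT2B (2.01%) and ORR1D2 (1.80%). All are ERVL-MaLR names apart from MT2B, a long terminal repeat of the MERVL group in ERVL. These are counts of interactions, not corrected for the number or length of the copies in the genome. MT names together took 30.2% ± 0.19 of LTR interactions in mESC 1FA (SD, n = 3) and 29.8% ± 0.60 in mOPC 1FA (n = 3), ORR1 names took 19.9% ± 0.38 and 19.5% ± 0.37, and MLT names took 12.8% ± 0.15 and 15.2% ± 0.31. The young, mobile elements were nearly missing from the lists. The 17 IAP names averaged 11.7 interactions a library in mESC 1FA, against 38.7 in mOPC 1FA, the 4 ETn/MusD names 3.00 and 2.33, and the 10 MMERVK10C names 20 and 7.33. The study kept only uniquely mapped reads, and the part of this in the low counts of near-identical copies was not tested. Names of internal parts (ending in -int) held 14.5% of the set.

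The captured RNA was spread over many copies. Tags fell in 43032 LTR copies in any library (median length 272 bases), 83 copies were listed in all 15 libraries and 13371 in only 1. In mESC 1FA, 14661 copies were listed per library and 52.5% of them had 1 interaction. Distinct RNA positions, each counted once per library however often it was captured, were spread almost evenly along the copies, with 34.2% ± 0.70 in the first of 3 equal parts from the 5′ end, 34.0% ± 0.55 in the middle and 31.7% ± 1.11 in the last in mESC 1FA (SD, n = 3), and 34.4% ± 0.48, 34.6% ± 0.26 and 31% ± 0.23 in mOPC 1FA.

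The share of all listed interactions with an LTR tag overlapped between the cell types, and it was lower in the ActD4 and NPM libraries. In mESC 1FA it was 1.44, 1.38 and 1.42%, and in mOPC 1FA 1.37, 1.44 and 1.43%, so the ranges overlapped (difference of means -0.00056 percentage points, exact permutation test, two-sided, p = 1). Under other counts they did not overlap: without Malat1 and Gm22973 the share was 1.48 to 1.52% in mESC 1FA and 1.57 to 1.64% in mOPC 1FA, and as a share of repeat interactions it was 10.2 to 12.2% and 16.2 to 17%. The make-up of the repeat total differed between the cell types. In the paper, small nuclear RNAs were the most abundant repeat class in mESC and far rarer in mOPC. Exon tags of the ncRNA class, which includes the small nuclear RNA Gm22973, numbered 85281 to 126282 in mESC 1FA libraries. In mOPC 1FA libraries they numbered 8041 to 9567. Values scaled to repeat interactions move with this total. In mESC 2FA it was 1.45, 1.43 and 1.51%, which overlaps mESC 1FA (difference 0.0485, exact p = 0.2). In mESC ActD4 it was 1.08% in both libraries, below every mESC 1FA library (difference -0.334, exact p = 0.2, the smallest p that 3 against 2 libraries allow). In mESC NPM it was 1.20 and 1.21% and in mOPC NPM 1.23 and 1.32%, below every 1FA library of the same cell type. Over both cell types the NPM libraries differed from 1FA by -0.176 percentage points (exact permutation within cell types, two-sided, p = 0.02, the smallest p this design allows). After adjustment over the 7 comparisons of shares made here, this p was 0.109. The direction was not kept under other counts: with each transcript–bin pair counted once the NPM difference was 4.63 percentage points, and as a share of repeat interactions it was 1.53. A pair counted as LTR if any of its interactions had an LTR tag, so the pair share rises with the interactions per pair. The mESC 1FA libraries listed 2441619 to 2832717 interactions on 289205 pairs, and the mESC NPM libraries 434610 and 608994 on 30730. The pair count therefore does not compare these groups on equal terms. The share of repeat interactions also differed between the cell types. On that scale the mESC NPM libraries, at 14% and 14.5%, lay above the mESC 1FA libraries, while the mOPC NPM libraries, at 16.5 and 16.4%, lay within the range of mOPC 1FA. In bulk libraries of this kind, fewer cells with an RNA and less RNA per cell cannot be told apart.

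**Figure D1:**
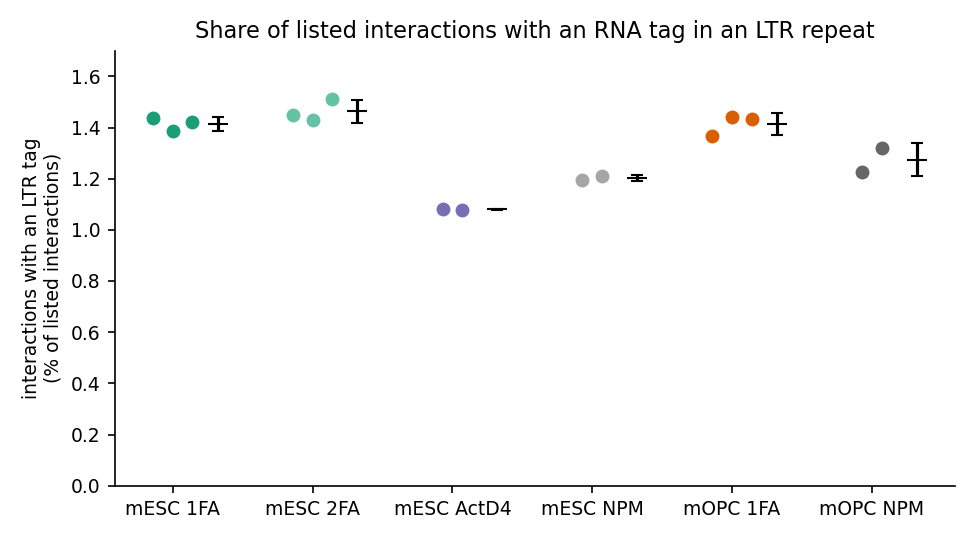
Percent of listed interactions whose RNA tag lay in an LTR repeat, 1 point per library in each of the 6 groups, with the mean and SD of each group in black. The 2 ActD4 libraries sit at 1.08%, and the NPM libraries of each cell type lie below its 1FA libraries, which lie between 1.37 and 1.44%.

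ERVL-MaLR took 60.0, 59.7 and 60.6% of LTR interactions in the mESC 1FA libraries and 60.6, 62.5 and 61.6% in the mOPC 1FA libraries, without overlap at full precision (difference of means 1.48 percentage points, exact permutation test, two-sided, p = 0.1, the smallest that 3 against 3 allow, adjusted p = 0.175). ERVK took 22.3% ± 0.93 and 22.3% ± 1.12, ERVL 13.1% ± 0.47 and 11.6% ± 0.27, and ERV1 3.90% ± 0.43 and 4.00% ± 0.21 (SD, n = 3 in each group). In the NPM libraries the ERVL-MaLR share was lower, at 54.7 and 55.0% in mESC and 58.2 and 57.0% in mOPC, below every 1FA library of the same cell type. This difference was not tested on its own.

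In the 1FA libraries LTR tags contacted DNA over the distances seen for tags outside repeats, with a larger share far along the chromosome, which depended on how interactions were counted, and almost no contacts with other chromosomes. In mESC 1FA, 44.2% of LTR interactions joined an RNA tag to DNA between 100 kb and 1 Mb away on the same chromosome, against 41.3% for tags outside repeats. Beyond 1 Mb in cis the share for LTR tags was 14.2, 13.1 and 13.6% in the mESC 1FA libraries and 19, 20.7 and 20.1% in the mOPC 1FA libraries. The same share for tags outside repeats was 11.4% ± 0.45 in mESC 1FA and 14.9% ± 0.90 in mOPC 1FA (SD, n = 3). The LTR share was above that of tags outside repeats in 13 of 15 libraries, and in 9 of 9 1FA and 2FA libraries, by 1.49 to 5.17 percentage points. With each transcript–bin pair counted once this reversed, to between -3.39 and -5.72 percentage points in 9 of 9 1FA and 2FA libraries and a mean over the 6 groups of -2.31. The set outside repeats was far larger, so more of its interactions shared a pair and the sets were not thinned alike. Without Malat1 and Gm22973 the difference in mOPC 1FA was 3.07 to 3.23 percentage points, where it was 4.75 to 5.17 with them. The median distance in cis was 154 kb ± 12.2 for LTR tags and 125 kb ± 11.1 for tags outside repeats in mESC 1FA. With every interaction counted, the mean difference over the 6 groups in the share beyond 1 Mb was 1.61 percentage points (exact sign-flip permutation test on group means, two-sided, p = 0.0625, adjusted p = 0.146). When tags outside repeats were weighted to the same host genes in the same amounts, it was 0.182 (exact p = 0.219).

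**Figure D2:**
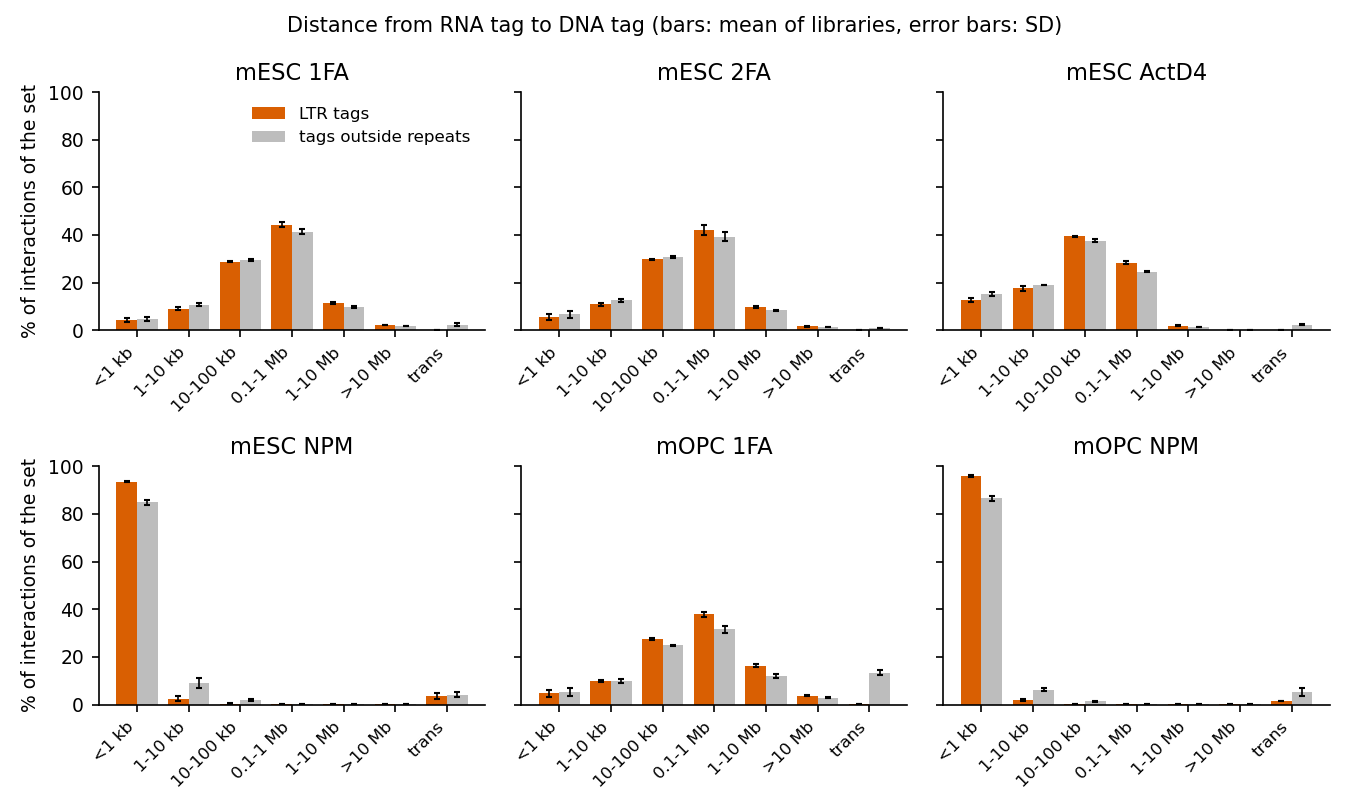
Percent of interactions in each class of distance between RNA tag and DNA tag for LTR tags and for tags outside repeats, by group (bars are means of 2 or 3 libraries, error bars SD). In the NPM groups 93.5% and 95.9% of LTR interactions were under 1 kb, and in mOPC 1FA the class of other chromosomes (trans) held 0.214% of LTR tags and 13.4% of tags outside repeats.

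Tags in long terminal repeats had more far contacts than tags in internal parts. The share beyond 1 Mb was 14.4% ± 0.70 for tags in long terminal repeats and 9.32% ± 0.55 for tags in internal parts in mESC 1FA, 12% ± 0.24 and 8.09% ± 0.20 in mESC 2FA, and 20.4% ± 0.99 and 16.8% ± 0.50 in mOPC 1FA (SD, n = 3 in each group). It was higher for the long terminal repeats in 9 of 9 1FA and 2FA libraries and in 13 of 15 libraries in all. This contrast was not tested, weighted to host genes or recounted with each pair counted once. Among families, ERVL-MaLR had the highest share in mESC 1FA and 2FA, with 15.9, 14.5 and 15% in the 1FA libraries against 12.1, 11.6 and 10.8% for ERVK. In mOPC 1FA, ERVL-MaLR (21.2% ± 0.81) and ERV1 (21.2% ± 2.19) did not differ beyond their spread, and ERVK was lowest at 16.4% ± 0.69. ERVL-MaLR was above ERVK in 14 of 15 libraries, above ERVL in 11 of 15, and highest of the 4 families in 9 of 15. ERVL was above it in mESC ActD4 replicate 1 (1.88 against 1.81%) and mESC NPM replicate 2 (0.304 against 0.148%), and in both mOPC NPM libraries (0.775 against 0.561% and 0.600 against 0.391%). Against tags outside repeats of their own host genes these shares differed little. The mean difference for ERVL-MaLR was 0.476 ± 0.022 percentage points in mESC 1FA and 0.641 ± 0.206 in mOPC 1FA, and for ERV1 it was 0.543 ± 0.632 and 0.758 ± 1.09 (SD, n = 3). For ERVK it was 0.271 ± 0.532 and 0.219 ± 0.365, and for ERVL 0.211 ± 0.466 and 0.224 ± 0.352. It was above 0 in 12 of 15 libraries for ERVL-MaLR, in 8 for ERVK, in 8 for ERV1 and in 7 for ERVL.

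**Figure D3:**
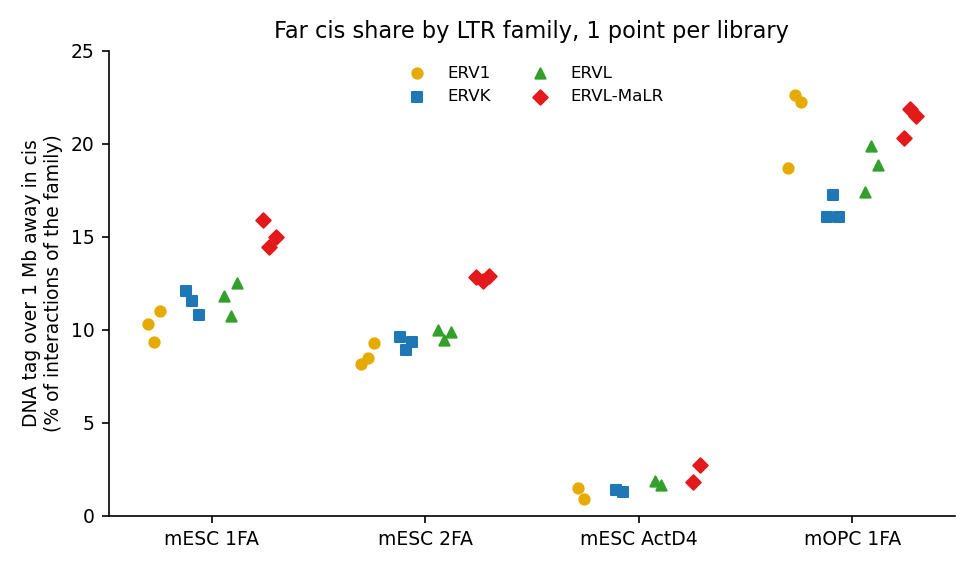
Percent of each family's interactions whose DNA tag lay more than 1 Mb away on the same chromosome, 1 point per library, for the 4 groups other than NPM. ERVL-MaLR points lie above the ERVK points in every library drawn, and all 4 families lie under 3% in ActD4.

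In the ActD4 and NPM libraries LTR tags, like tags outside repeats, lay closer to their DNA contacts. In mESC ActD4 the share beyond 1 Mb was 1.7 and 2.21%, below every mESC 1FA library. Tags outside repeats were lower too, at 1.43 and 1.39% in ActD4 against 10.9 to 11.8% in mESC 1FA. In mESC ActD4 contacts of the tag with the gene that made it were 61.8% ± 0.65 (n = 2) against 32.8% ± 1.52 in mESC 1FA (n = 3). For tags outside repeats these own-gene contacts were 59.2% ± 0.73 and 32.5% ± 1.58 in the same libraries. In NPM libraries 93.5% ± 0.15 (mESC) and 95.9% ± 0.38 (mOPC) of LTR interactions were under 1 kb, against 84.8% ± 1.17 and 86.6% ± 1.04 for tags outside repeats (SD, n = 2), and 96.0 and 98.0% were with the tag's own gene. These shifts were not tested on their own. The difference between NPM and 1FA was also compared between the cell types for 6 quantities of LTR tags. None passed (exact permutation of treatment labels within cell types, adjusted p = 0.68 for each). Relabelling mixed NPM with 1FA libraries, so the large NPM shifts widened the range that each difference was judged against. For the share beyond 1 Mb these shifts were -13.5 percentage points in mESC and -19.5 in mOPC. The test could hardly detect a difference between cell types, and no conclusion is drawn from it.

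Few LTR interactions were in trans. They numbered 49, 67 and 38 in the mESC 1FA libraries, 20, 38 and 16 in mESC 2FA, 2 and 0 in ActD4, and 62, 52 and 76 in mOPC 1FA. The NPM libraries held more, with 138 and 328 in mESC and 205 and 213 in mOPC. In mESC nearly all had their DNA tag in 1 bin, chr17:39825001-39850000 (GRCm38), which holds an annotated ribosomal RNA gene: 43 of 49, 64 of 67 and 31 of 38 in 1FA, and 116 of 138 and 306 of 328 in NPM. The bin also took most trans contacts of tags outside repeats in mESC NPM, whose trans share was 3.27 and 4.81% with the bin and 0.940 and 0.508% without it. The mOPC libraries had fewer there, with 3 of 62, 9 of 52 and 20 of 76 in that bin in 1FA, and 39 of 205 and 69 of 213 in NPM. Neighbouring bins on chromosome 11 from 3150001 to 3200000, in the Sfi1 locus, came next in mOPC NPM, with 19 and 16 interactions in library 1 and 14 and 21 in library 2. The trans share was below that of tags outside repeats in 15 of 15 libraries, by 0.361 to 14.2 percentage points (mean over groups -3.85, exact sign-flip permutation test, two-sided, p = 0.031, the smallest possible, adjusted p = 0.109). Weighted to the same host genes, the difference was -0.0040 (exact p = 0.844). Malat1 and Gm22973 made up most of the difference in the 1FA libraries: without them it was -0.634 to -0.775 percentage points in mOPC 1FA, against -11.9 to -14.2 with them, and -0.159 to -0.271 in mESC 1FA, against -1.58 to -2.85.

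Most LTR tags came from introns. In mESC 1FA 96.0% ± 0.18 of LTR tags were intronic, against 83.6% ± 1.76 of tags outside repeats, and the intronic share was higher for LTR tags in 15 of 15 libraries. Of intronic tags of long noncoding RNAs, 3.47% ± 0.18 in mESC 1FA and 2.38% ± 0.10 in mOPC 1FA were in LTR repeats, against 1.63% ± 0.04 and 1.73% ± 0.03 of intronic tags of protein-coding genes (SD, n = 3). This order held in 15 of 15 libraries. Coding sequence held almost none, at 0.036% ± 0.005 in mESC 1FA and 0.049% ± 0.006 in mOPC 1FA, and exons of the ncRNA class held 0 in every library. Exons of NAST transcripts, unannotated transcripts of nuclear RNA from stem cells, had the highest share in mESC 1FA, 8.76% ± 0.74 (237 LTR interactions over 3 libraries) and 0.579% ± 0.504 in mOPC 1FA (2 interactions).

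A few long genes led the host transcripts, of which 8543 were listed in any library, 8485 with an Ensembl identifier (8471 matched to a symbol in GENCODE M21) and 58 NAST. The 10 leading hosts of each library held 7.09% ± 0.51 of LTR interactions in mESC 1FA and 9.36% ± 0.41 in mOPC 1FA. Pvt1 had the highest share averaged over the 6 groups, with 0.726, 0.843 and 0.947% of LTR interactions in mESC 1FA and 1.77, 2.04 and 2.06% in mOPC 1FA. The order differed between groups. In mESC 1FA the mean share was higher for Wwox, with 1.38, 1.11 and 1.17% (0.245 to 0.293% in mOPC 1FA), for Rad51b and for Exoc4 (0.882%), and in mOPC NPM it was 1.75% for Lhfpl3 against 1.13% for Pvt1. Rad51b held 1.16, 0.816 and 0.759% in mESC 1FA and 0.0362 to 0.0563% in mOPC 1FA. Lhfpl3 had LTR tags in the mOPC libraries and 0 in every mESC library, at 1.28, 1.29 and 1.33% in 1FA, and Anks1b held 1.06 to 1.18% in mOPC 1FA and 0.0131 to 0.0198% in mESC 1FA. The part of a gene's own interactions that lay in LTR repeats differed less. For Pvt1 it was 2.75 to 3.00% in mESC 1FA and 3.19 to 3.36% in mOPC 1FA, and for Exoc4, a subunit of the exocyst, 2.64 to 3.13% and 2.84 to 3.32%.

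Single copies could stand out within a name. The copies described next were picked after their values were seen, from the 8 with the highest share averaged over groups. First in this average was an ORR1B1-int copy in Mtf2, a Polycomb-like protein gene (chr5:108076619-108078637, plus strand), with 101, 58 and 80 interactions in mESC 1FA and 4, 7 and 4 in mOPC 1FA. Its rank came from mESC NPM, where it held 0.616 and 0.652% of LTR interactions, whereas in mESC 1FA its mean of 0.211% was below that of an MTE2a-int copy in Rad51b (0.215%) and of an MTD copy in Jarid2 (0.226%). Second was an RLTR28 copy in an intron of the long noncoding RNA 5031425E22Rik (chr5:23428299-23428789, minus strand), with 1, 4 and 5 interactions in mESC 1FA and 119, 114 and 192 in mOPC 1FA. In mOPC 1FA its mean of 0.480% was below that of an ORR1B1-int copy in Gm29609 (0.508%), which held 189, 150 and 116 interactions there. The MTD copy in Jarid2, a PRC2 cofactor gene (chr13:44775538-44775824, plus strand), held 74, 71 and 111 in mESC 1FA and 1, 3 and 3 in mOPC 1FA, and an LTR88c copy in Lncenc1, a long noncoding RNA of embryonic stem cells (chr13:97484118-97484281, plus strand), held 73, 52 and 64 in mESC 1FA and 0 in each mOPC library. An RLTR11A2 copy in Pvt1 (chr15:62113043-62113535, plus strand) was listed in both cell types, with 40, 18 and 38 in mESC 1FA and 70, 93 and 47 in mOPC 1FA.

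Between the cell types, 89 of the 242 LTR names tested differed, 45 higher and 44 lower in mOPC 1FA than in mESC 1FA (limma with precision weights on log2 IPM, Benjamini-Hochberg adjusted p under 0.05 over 622 repeat names of all classes). Of all 622 names, 37.6% were called, 20.4% higher and 17.2% lower, so LTR names were called about as often as repeats in general. The 242 tested names held 96.3% of LTR interactions, and the other names, including every IAP, ETn/MusD and MMERVK10C name, were too rare to test. The median log2 fold change was 0.00 over LTR names and 0.03 over all names. Scaled to repeat interactions in place of all interactions, the split became 137 higher and 14 lower, and the median of all names was 0.61. All names moved with the repeat total, which held far more small nuclear RNA in mESC. By family, 16 of 99 ERVK names were higher and 19 lower, 4 and 5 of 25 ERV1 names, 6 and 11 of 39 ERVL names, and 18 and 8 of 75 ERVL-MaLR names. Scaled to repeat interactions these became 47 and 4, 17 and 3, 18 and 4, and 52 and 2.

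Most MERVL names were lower in mOPC. Of the 8 names in that list 7 were tested, 5 were called lower and 0 higher, where 17.2% of all names were called lower, and the median log2 fold change was -0.49 against 0.03 over all names. Scaled to repeat interactions 2 were lower and 1 higher, with medians of 0.09 for these names and 0.61 for all. Their interactions summed to 816 ± 10.5 IPM in mESC 1FA and 613 ± 1.92 in mOPC 1FA (SD, n = 3). MT2B had 319, 331 and 330 IPM in mESC 1FA and 240, 213 and 253 in mOPC 1FA (a log2 fold change of -0.47 with SE 0.07 and adjusted p = 8.17e-05 in limma). MERVL-2A-int, an internal part, had 225, 205 and 208 and then 153, 150 and 152 (log2 fold change -0.49), and MERVL-int had 34.5, 23.3 and 19.1 and then 6.79, 9.01 and 9.01 (log2 fold change -1.57). In all of these the groups did not overlap, which held for 117 of the 242 tested LTR names in this comparison. Only MT2A (log2 fold change 0.29) and MT2B1 (-0.28) were not called.

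Few names of type C ERV1 and of RLTR9, RLTR13 and RLTR17 could be tested, and their counts were not tested against the 17.2% of all names called lower. Type C ERV1 names had 5 tested of 50, with 3 lower and 0 higher (median -0.60), or 2 lower and 1 higher when scaled to repeat interactions. RLTR6-int, an internal part, had 48.4, 37.3 and 42.0 IPM in mESC 1FA and 13.6, 14.7 and 15 in mOPC 1FA (log2 fold change -1.54). MMERGLN-int, of a GLN element, had 24.4, 19.7 and 18.4 and then 1.36, 0.949 and 1.5 (log2 fold change -3.81), and 59, 43 and 45 of its 65, 48 and 52 mESC interactions came from 1 copy in Kif24. RLTR42-int, which the list's wording took in although it is an ERVK name, was the third. Of the RLTR9, RLTR13 and RLTR17 names 3 of 38 were tested and 2 were lower, RLTR17 (log2 fold change -0.54) and RLTR17D-Mm (-1.15), while scaled to repeat interactions 0 were lower and 1 was higher.

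Of 48 tested MLT names 18 were higher and 3 lower in mOPC (median 0.26), of 19 MT names 3 and 3, and of 26 ORR1 names 2 and 4, where 20.4% of all names were higher and 17.2% lower. These lists were not tested against each other or against all names. Scaled to repeat interactions, which moved the median of all names to 0.61 and the split of all LTR names to 137 higher and 14 lower, they became 33 and 1, 13 and 1, and 16 and 0. The wording of the MLT list also took in MLT2 names, which are ERVL, MLTR25A and MLTR25C, which are ERVK, and MLTR12, which is ERV1. MLT1C (log2 fold change 0.46, SE 0.09), MLT1A0 (0.39), MLT1F (1.08) and MLT1G (2.29) were among the higher MLT names, and MLTR25A (-0.79), MLT1E (-1.65) and MLT2B3 (-0.94) were the lower ones. Among the leading names, MTEa was higher, with 326, 346 and 325 IPM in mESC 1FA and 393, 448 and 444 in mOPC 1FA (log2 fold change 0.36, SE 0.07), and ORR1F was higher by 0.25. MTC was lower (log2 fold change -0.18), with 670, 676 and 664 against 543, 633 and 602 IPM, and lost its call in 3 of the fits that left out 1 library, with the highest adjusted p in limma, 0.181, without mOPC 1FA replicate 1. When scaled to repeat interactions MTC was instead called higher (log2 fold change 0.39, limma adjusted p = 0.000176). MTD, the most abundant name, was not called, with 1656, 1591 and 1728 against 1558, 1732 and 1688 (a log2 fold change of 0.00 with SE 0.04 and adjusted p = 0.941 in limma).

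**Figure D4:**
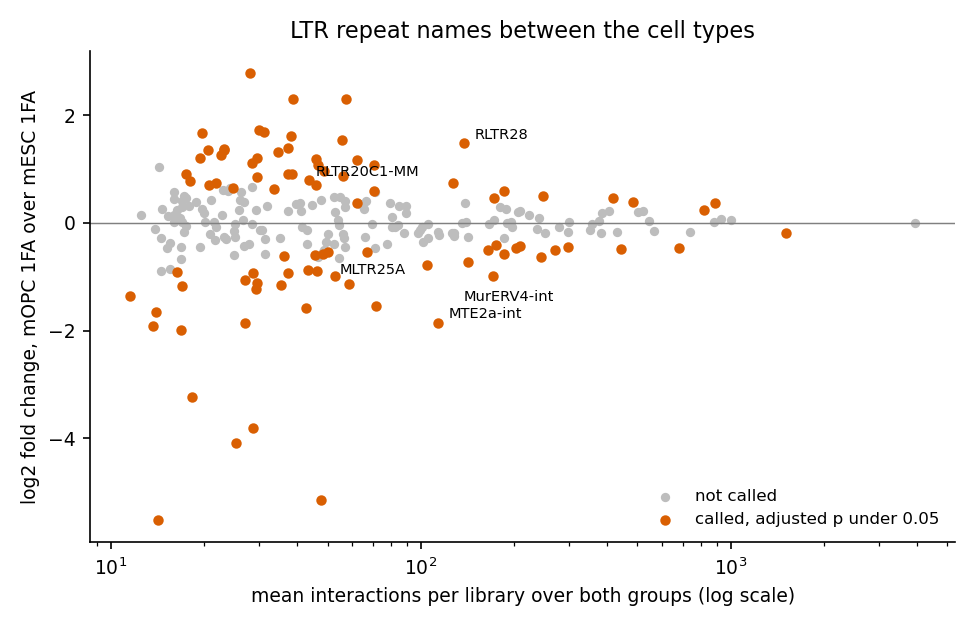
Log2 fold change of each tested LTR name between mOPC 1FA and mESC 1FA (positive is higher in mOPC) against its mean interactions per library, on a log scale. The 89 called names are in orange, and labels mark named repeats with the largest changes, among them RLTR28 at 1.48 and MTE2a-int at -1.85.

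Among called names that averaged 100 or more interactions over the compared libraries, with groups that did not overlap, the largest rises were RLTR28 (log2 fold change 1.48), RLTR20C1-MM (0.75), RMER6C (0.59), RLTR20A4 (0.49) and MLT1E2 (0.46). MLT1E2 lost its call in 3 of the fits that left out 1 library (highest limma adjusted p = 0.0563, without mESC 1FA replicate 2). The largest falls were MTE2a-int (-1.85), MurERV4-int (-0.99), MLTR25A (-0.79), RMER10B (-0.72) and MER21B (-0.64). RLTR28 had 26.2, 41.4 and 29.7 IPM in mESC 1FA and 73.7, 75.9 and 125 in mOPC 1FA. Its copy in 5031425E22Rik gave 74.2% of the name in mOPC 1FA against 3.92% in mESC 1FA, and without that copy the log2 ratio of means went from 1.5 to -0.40. MTE2a-int had 87.3, 66.8 and 58.2 IPM in mESC 1FA and 20.4, 19 and 18 in mOPC 1FA. Copies in Rad51b held 62.6% of it in mESC 1FA and 11.6% in mOPC 1FA, and without that gene the log2 ratio went from -1.89 to -0.65. For MurERV4-int, 2810004N23Rik held 32.3% and 8.56%, and its ratio went from -0.99 to -0.56 without it. The other 7 names kept their sign without their leading copy, among them RLTR20C1-MM with 243 copies and RLTR20A4 with 535.

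**Figure D5:**
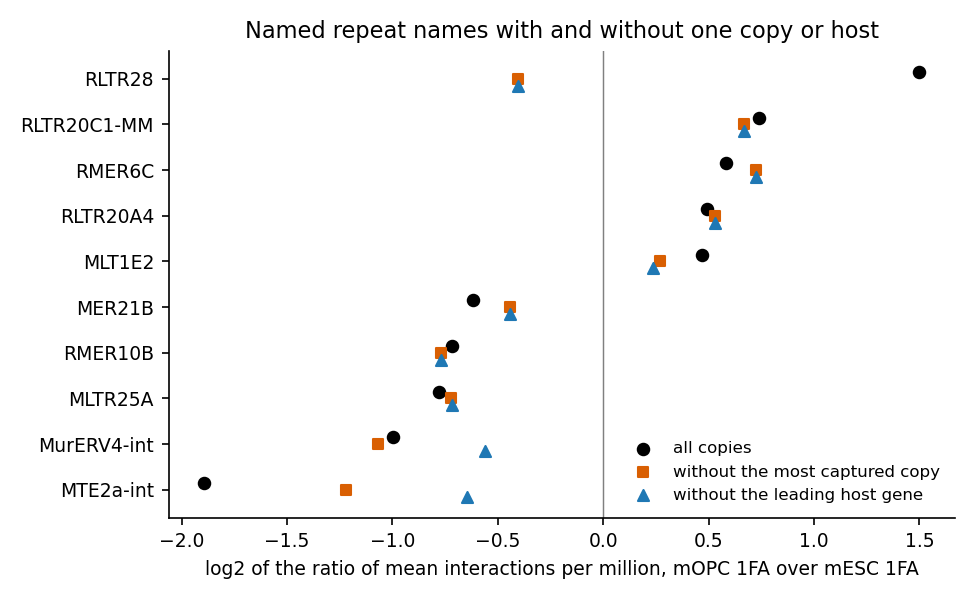
Log2 of the ratio of mean IPM between mOPC 1FA and mESC 1FA for the 10 named LTR names, with all copies (circles), without the most captured copy (squares) and without the leading host gene (triangles). RLTR28 is the only name whose ratio changes sign, from 1.5 to -0.40.

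Relative to the capture of their host genes, few LTR names were called between the cell types. Each name's interactions were set against the number expected if every host gene gave the same part of its interactions to that name in all libraries. That part was estimated from the same 15 libraries pooled. For a host captured mainly in 1 cell type, the expected number is therefore near the observed number by construction. A low count of calls between the cell types is thus partly built into this scale. On this scale 1 of 242 names was called, RLTR6-int, which was lower in mOPC (0 higher). Calls over repeat names of all classes were not counted on this scale, so a low count is not shown to be particular to LTR names. For MT2B the log2 fold change was 0.01 on this scale (limma adjusted p = 0.983) and for MTEa 0.02 (limma adjusted p = 0.978).

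The comparison of 2% with 1% formaldehyde called none of the 242 LTR names between mESC 2FA and mESC 1FA with limma, while 12 had an unadjusted p under 0.05, and 0% of all 622 names were called. MTD had 1773, 1720 and 1783 IPM in mESC 2FA, and MT names held 30.3% ± 0.24 of LTR interactions there (SD, n = 3).

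Between mESC ActD4 and mESC 1FA 4 of 242 LTR names were called, where 6.59% of all names were called (2.25% higher and 4.34% lower). The lower names were MTD (1656, 1591 and 1728 IPM in 1FA, 1275 and 1283 in ActD4, a log2 fold change of -0.38 with SE 0.09 and adjusted p = 0.0211 in limma), MT2B (-0.63, SE 0.15) and MERVL-2A-int (-0.63, SE 0.18), and ERVL-int, named after its value was seen, was higher (1.29, mean of 27.8 interactions per library). The median over all names was -0.38, so MTD lay at that median, and on TMM scaling, which moved that median to -0.16, only ERVL-int was called. Scaled to repeat interactions the split was 1 higher and 32 lower. Relative to host gene capture it was 0 higher and 2 lower (MMERVK9E-I-int and MT2B), so ERVL-int, MTD and MERVL-2A-int lost their calls there. Without ActD4 replicate 1 the count was 1, and without ActD4 replicate 2 it was 0, in fits where the lone ActD4 library was assumed to vary like the other groups.

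MTD and MTC were lower in the NPM libraries than in 1FA in both cell types. Of 19 tested MT names 3 were called lower and 0 higher in each cell type, and of 26 tested ORR1 names 2 and 0, and these lists were not tested against all names. In mESC NPM 10 of 242 LTR names were called against mESC 1FA, 4 higher and 6 lower, where 9.32% of all names were called (5.31% higher and 4.02% lower, against 1.65% and 2.48% of LTR names). MTD had 1130 and 1126 IPM in NPM against 1591 to 1728 in 1FA (a log2 fold change of -0.56 with SE 0.08 and adjusted p = 0.00026 in limma), and MTC had 375 and 435 against 664 to 676 (-0.71, SE 0.12). ORR1A2 (-1.09, SE 0.21), MTB-Mm (-0.97, SE 0.22) and ORR1B1 (-0.69, SE 0.19) were also lower, and RMER15-int was higher (0.75, SE 0.22). In mOPC NPM 26 names were called against mOPC 1FA, 10 higher and 16 lower, where 14% of all names were called (4.50% higher and 9.49% lower, against 4.13% and 6.61% of LTR names). MTC (-0.62, SE 0.09) and MTD (-0.45, SE 0.06) were lower there too, with 347 and 427 and with 1187 and 1235 IPM. Their groups did not overlap, which held for 103 of the 242 tested LTR names in this comparison. ORR1A2-int (-0.88), RLTR11A2 (-0.77), MLT1E2 (-0.76) and RMER6C (-0.54) were lower, and RMER17C (0.65) and RLTR20A4 (0.44) were higher.

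Relative to host gene capture the calls of these MT and ORR1 names remained, while several other calls did not. The split became 0 higher and 9 lower in mESC, where RMER15-int lost its call (0.51). In mOPC it became 2 higher and 14 lower, and RLTR11A2, MLT1E2, RMER6C and RMER17C lost their calls. RLTR20A4 kept its call there as a higher name (0.53, limma adjusted p = 0.00866). On that scale MTD was at -0.42 (limma adjusted p = 0.00156), MTC at -0.58, ORR1A2 at -1.04, MTB-Mm at -0.91 and ORR1B1 at -0.68 in mESC, and MTD at -0.36 and MTC at -0.60 in mOPC, all still called. Scaled to repeat interactions, the split in mESC became 50 higher and 1 lower, with the median of all names at 0.53, and MTD was then at 0.04 and MTC at -0.12, neither called lower. In mOPC it became 12 higher and 6 lower, with MTD and MTC still lower (-0.31 and -0.47). On TMM scaling the mESC split was 4 higher and 11 lower. Without mOPC NPM replicate 1 the mOPC count was 1 and without replicate 2 it was 5, and without mESC NPM replicates 1 and 2 in turn the mESC count was 2 and 4. These fits leave 1 NPM library, which was assumed to vary like the other groups. Over all fits that left out 1 library MTD kept its call in both cell types, whereas ORR1A2, MTB-Mm, ORR1B1 and RMER15-int in mESC, and every other name given here in mOPC, lost their call in at least 1.

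Between the NPM groups 11 of 242 LTR names differed, 6 higher and 5 lower in mOPC, where 7.40% of all names were called (2.41% higher and 4.98% lower). RLTR17B-Mm, an ERVK long terminal repeat, was the 1 called name averaging 100 or more interactions over these libraries, at 87.4 and 135 IPM in mESC NPM and 168 and 211 in mOPC NPM (a log2 fold change of 0.74 with SE 0.21 and adjusted p = 0.0377 in limma). It lost its call without mESC NPM replicate 1 (limma adjusted p = 0.292) and without mOPC NPM replicate 2 (limma adjusted p = 0.151). A copy in 2610035D17Rik held 14.8% of it in mOPC NPM and 0% in mESC NPM. MTE2a-int (-1.54) and MurERV4-int (-1.19), named after their values were seen, were lower in mOPC. Without mOPC NPM replicate 2 the count was 1, and without either mESC NPM replicate it was 6. Relative to host gene capture 0 of these names were called, scaled to repeat interactions the split was 12 higher and 4 lower, and on TMM scaling 6 higher and 11 lower. For the NPM difference compared between the cell types, 0 of 242 LTR names were called (limma, 32 with an unadjusted p under 0.05). Calls over repeat names of all classes were not counted for this contrast. It rests on 2 NPM libraries per cell type, so the absence of calls does not show that the differences were equal.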

How the data were processed

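RNA and DNA tags were sequenced from 15 RADICL-seq libraries. The authors mapped reads to mm10 (the submitters' processing notes name BWA 0.7.15-r1140 and CASAVA 1.8), kept uniquely mapped reads and deposited, per library, the interactions of significant transcript and 25-kb bin pairs, with a p-value per pair called over pooled replicates. Pairs under the threshold are not analysed here, so totals are not sequencing depth. Repeat overlaps and hosts were taken as deposited, and distances were computed between the deposited centres of the RNA and DNA tags. Members, gene lists and tests were chosen with earlier results of these data known. Distinct interactions were counted per repeat name. Names with a mean of at least 10 interactions were tested on log2 interactions per 1000000 listed (prior count 0.5) in limma 3.58.1 (R 4.3.3) with precision weights, called at a Benjamini-Hochberg adjusted p under 0.05. Weights replaced the planned unweighted trend because simulated counts gave too many false calls without them. On simulated data with known changes of log2 1, 63.5 to 92.5% were recovered, and 1.55 to 6.90% of calls were false. The simulated libraries were independent and shared 1 fixed dispersion, whereas real replicates share 1 list of pairs, so these rates may not hold for the real data. Named repeats were, per comparison, the 5 largest called rises and 5 largest called falls with a mean of at least 100 interactions and no overlap between groups, the 10 leading names, and members of the lists. Shares were compared by exact permutation. Alternatives were scaling, filter, prior count, replicate block, own-gene contacts, host-gene ratio and leaving out each library. Sequences were read from GRCm38 and are given for 7 of the 10 leading names; the others are not reported here.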

Additional observations from a re-analysis of the deposited data

How the results depend on the processing

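The lists hold significant pairs only, with replicates on 1 list, few libraries per group and 2716 LTR interactions in the smallest library, so rare names could not be tested. The cause of the changes given here was not tested. Of the LTR share differences, mOPC 1FA against mESC 1FA reversed with each pair counted once (0.400 percentage points), as a share of repeat interactions (5.37) and without Malat1 and Gm22973 (0.110), and ranged from -0.0154 to 0.0232 with 1 library left out (above 0 without replicate 1 or 3 of mESC 1FA, at 0.00986 and 0.00388, or replicate 1 of mOPC 1FA). The 2FA difference reversed as a share of repeat interactions (-0.258). The NPM difference reversed with each pair counted once (4.63) and as a share of repeat interactions (1.53), and ranged from -0.199 to -0.154 with 1 library left out. The far cis difference was 5.83 without own-gene contacts and reversed to -2.31 with each pair counted once. Without the ribosomal RNA gene bin it was 1.60 (exact sign-flip permutation p = 0.031). With 15 libraries as the unit it was 1.88 (exact sign-flip permutation p = 0.000244). Replicates of a group share 1 list of pairs, so that last p treats dependent libraries as independent. The trans difference weighted to host genes was -0.0040.

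Without own-gene contacts 176 LTR names among 475 repeat names were tested, in place of 242 among 622. The median log2 fold change of all names was then -0.07 between the cell types, -0.54 for ActD4 and 0.23 for mESC NPM. It was -1.09 for mOPC NPM and -1.50 for mOPC NPM against mESC NPM. Calls over all names were not counted in that setting, so its counts of LTR names are not shown to be particular to them. Counts of called LTR names for mOPC 1FA against mESC 1FA were 151 scaled by repeat interactions (60 of the 89 shared), 140 with no filter (80 shared), 46 without own-gene contacts (45 shared) and 1 by host ratio, and 80 to 89 with 1 library left out. For ActD4 they were 1 with TMM, 33 scaled by repeat interactions, 168 with no filter, 32 without own-gene contacts, 2 by host ratio and 66 without weights, and 0 to 6 with 1 library left out. For mESC NPM they were 51 scaled by repeat interactions, 110 with no filter, 43 without own-gene contacts and 34 without weights, and 2 to 12 with 1 library left out. For mOPC NPM they were 95 without own-gene contacts, 16 by host ratio and 17 without weights, and 1 to 22 with 1 library left out. For mOPC NPM against mESC NPM they were 17 with TMM, 118 without own-gene contacts, 0 by host ratio and 59 without weights, and 1 to 11 with 1 library left out.

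Libraries of the same replicate number did not deviate together in every pair (r from -0.326 to 0.779 over 60 names), so the numbers were not taken as pairs. With the replicate number as a block the NPM share difference was -0.169 (exact sign-flip permutation p = 0.125, the smallest p this block design allows). The counts of called LTR names with that block were 87, 0, 4, 8, 24 and, for mOPC NPM against mESC NPM, 21. The crossed pairing, chosen after seeing the data, gave 28 there.

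Among named repeats, host ratio reversed MER21B (0.0538), MLTR25A (0.13), MT2B (0.0107), MTC (0.10), MTE2a-int (0.0203), MurERV4-int (0.20), ORR1F (-0.0201) and RLTR28 (-0.071) between cell types. Scaling by repeat interactions reversed MT2B (0.10) and MTC (0.39, called higher) between cell types and MTD (0.0428) in mESC NPM, and leaving out own-gene contacts reversed RLTR20A4 (-1.24) in mOPC NPM.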
